A study of Mus musculus with 3 samples.

Results

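Ccl17, Ccl22 and the chemokine receptors Ccr4, Ccr8, Ccr10 and Ccr7 were followed cell type by cell type in skin leukocytes of mice with MC903 dermatitis. The 6 genes were picked by name, as a chemokine pair with the receptors found around it on T cells and dendritic cells, out of 31253 genes in the skin count matrices. MC903 (calcipotriol) is a vitamin D analogue that, painted on mouse skin, raises an inflammation used as a model of atopic dermatitis. The RHS library held CD45 bead-selected skin cells of mice that received both RHS and MC903. The control library held cells selected in the same way from mice that received MC903 without RHS. The labels do not expand RHS, and the study as a whole asks how psychological stress aggravates skin inflammation through sympathetic nerves and eosinophils. Strain, age, sex and the number of mice behind each library are not given in the sources used here. Both libraries were captured on BD Rhapsody, a microwell system that tags each transcript with a unique molecular identifier (UMI). The ganglion nuclei of the series were not analysed here.

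CCL17 and CCL22 are small secreted chemokines made mainly by dendritic cells, and both bind CCR4, a receptor of skin-homing memory, type 2 and regulatory T cells. CCR8 marks subsets of the same T cells and is bound in mice by CCL1 and CCL8, while CCR10 is bound by the keratinocyte chemokine CCL27 and by CCL28. CCR7 is switched on as dendritic cells mature and leads them, along CCL21 and CCL19, into lymphatic vessels and lymph nodes. In atopic dermatitis CCL17 is widely measured as a marker of disease activity.

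The Ccl22 and Ccl17 genes lie in the same direction on mouse chromosome 8, on either side of the chemokine gene Cx3cl1, and their promoters are shown because the levels of the pair are compared throughout. The windows are the 250 bases upstream of each start site from RefSeq (build GRCm38.p6, plus strand), at chr8:94810203-94810452 for Ccl17 and chr8:94745434-94745683 for Ccl22. Of the 6 genes, 4 were in the promoter table.
Ccl17: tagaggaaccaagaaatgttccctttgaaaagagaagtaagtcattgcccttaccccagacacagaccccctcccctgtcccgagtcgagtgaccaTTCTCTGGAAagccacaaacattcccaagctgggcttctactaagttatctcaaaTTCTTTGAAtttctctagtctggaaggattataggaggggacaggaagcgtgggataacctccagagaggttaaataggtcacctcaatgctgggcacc
Ccl22: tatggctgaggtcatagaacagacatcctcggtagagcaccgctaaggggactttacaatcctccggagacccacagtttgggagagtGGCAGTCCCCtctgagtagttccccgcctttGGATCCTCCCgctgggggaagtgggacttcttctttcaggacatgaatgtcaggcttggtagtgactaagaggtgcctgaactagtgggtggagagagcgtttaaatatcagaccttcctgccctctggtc
Capitals mark matches to 3 short motifs searched on both strands. The STAT6-type motif is TTC and GAA with any 4 bases between them, the STAT5-type motif is TTC and GAA with any 3 bases between them, and the loose NF-kappaB-type motif is GGG and CC with any 5 bases between them. The Ccl17 window held 1 STAT6-type match starting 154 bases before the start site and 1 STAT5-type match starting 99 bases before it, which did not overlap, and no NF-kappaB-type match. The Ccl22 window held 2 NF-kappaB-type matches, both on the reverse strand, starting 162 and 131 bases before the start site, and neither STAT-type motif. Of 32851 promoter windows of this length, 5.9% held the STAT6-type, 7.0% the STAT5-type and 45.8% the NF-kappaB-type motif. A match is a run of letters and not a measured binding site.

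The RHS library held 13339 barcodes with 52762575 UMIs and the control library 12979 barcodes with 55200785 UMIs. Filtering kept 12953 RHS and 12577 control cells, with medians of 3101 and 3233 UMIs. The libraries shared 5 cell barcodes. Clusters were built without the 6 genes and named from marker lists that leave them out, so each class name ends in "-like", and 20 named classes with at least 50 cells in each library were compared. Cells of unnamed clusters made up 23.5% of the RHS and 26.8% of the control library. Of the defining transcripts, some stood at similar levels in both libraries and others did not. Langerhans cell-like cells held 5443 CPM (UMIs of a gene per 1e6 UMIs of the class) of Cd207 in RHS and 5381 CPM in control, migratory dendritic cell-like cells held 1741 and 1686 CPM of Fscn1, and regulatory T cell-like cells held 819 and 785 CPM of Foxp3. In contrast, Il5 in ILC2-like cells was 3262 CPM in RHS and 1617 CPM in control, Tnfrsf18 in regulatory T cell-like cells 237 CPM in RHS and 544 CPM in control, and Cldn5 in endothelial cell-like cells 81.6 CPM in RHS and 237 CPM in control. CD45 selection was incomplete, since keratinocyte-like cells were 5.40% of RHS and 11.2% of control cells. Each group is 1 library. No difference between them could be tested, and the 95% intervals below cover counting error only. UMIs of 1 cell are not independent of each other, so these intervals are too narrow.

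Over all kept cells Ccl17 was somewhat higher and Ccl22 lower in the RHS library. Ccl17 had 5667 counts (110 CPM) in RHS cells and 4751 counts (88.7 CPM) in control cells, a ratio of RHS over control of 1.24 (1.19 to 1.29). Ccl22 had 6373 counts (124 CPM) in RHS cells and 11160 counts (208 CPM) in control cells, a ratio of 0.593 (0.575 to 0.612). The ratios of the pair thus lay on opposite sides of 1 while Ccl22 was the higher of the pair in both libraries, with a UMI of Ccl17 in 563 RHS and 481 control cells and of Ccl22 in 571 RHS and 626 control cells. Ccr7 had 5451 counts in RHS and 8383 in control (0.676, 0.653 to 0.699). The T cell receptors were sparse, with 111 RHS and 203 control counts of Ccr4, 47 and 53 of Ccr8, and 26 and 29 of Ccr10. Their ratios were 0.568 (0.447 to 0.720), 0.921 (0.609 to 1.39) and 0.932 (0.527 to 1.64). Library-wide values mix the level per cell with the make-up of the library, since migratory dendritic cell-like cells numbered 239 in RHS and 340 in control and interleukin 17-type gamma-delta T cell-like cells 330 in RHS and 826 in control.

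Most Ccl17 transcripts lay in the dendritic classes, and the class holding most of its transcripts differed between the libraries. The cDC2-like class, a mix of clusters, is named for conventional type 2 dendritic cells, the CD301b and CD209a lineage of the dermis. The cDC2 markers fitted its clusters unevenly, with mean log2 ratios over other clusters from 0.62 to 1.64. Its cells need not all belong to that lineage. The level in cDC2-like cells was 385 CPM (371 to 400) in RHS and 176 CPM (166 to 186) in control, a ratio of 2.19 (2.05 to 2.34). The level in migratory dendritic cell-like cells (mature cells carrying Fscn1 and Apol7c) was 483 CPM (446 to 522) in RHS and 749 CPM (712 to 787) in control, a ratio of 0.645 (0.588 to 0.707). The ratio was thus above 1 in the cDC2-like class and below 1 in the migratory class. Langerhans cell-like cells, whose namesakes sit in the epidermis, held 496 CPM (464 to 530) in RHS and 417 CPM (389 to 446) in control, a ratio of 1.19 (1.08 to 1.31). The cross-presenting cDC1-like cells held 70.5 CPM in RHS and 33.0 CPM in control (2.13, 1.34 to 3.45), from 12 RHS and 6 control cells with a UMI. The cDC1-like ratio was 6.47 without the richest cell of each library and 16.2 with single-cell marker gates in place of clusters.

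In the RHS library the order of Ccl17 levels was Langerhans cell-like, migratory, cDC2-like and cDC1-like, and the interval of the ratio between the first pair included 1. In the control library it was migratory, Langerhans cell-like, cDC2-like and cDC1-like, each apart from the next in this list beyond counting error, while the cDC1-like level (33.0 CPM) was not apart from that of mural cell-like cells (20.7 CPM). Of all Ccl17 UMIs, cDC2-like cells held 50% in RHS and 26.9% in control, migratory cells 11.4% in RHS and 33.2% in control, and Langerhans cell-like cells 15.7% in RHS and 17.6% in control. Unnamed clusters held 19.8% in RHS and 18.7% in control. Most of that lay in 1 unnamed cluster led by Arg1, Mmp13 and Ccl24, which was split from the dendritic group but scored highest for macrophage markers, with C1qc, Ms4a7 and C1qb among its top genes. It held 331 CPM in RHS and 313 CPM in control (1.06, 0.945 to 1.18). Among the other classes basophil-like cells had 14 RHS and 6 control counts, and macrophage-like cells had 4.18 CPM in RHS and 9.96 CPM in control (47 and 60 counts). The border of the macrophage-like class moved with the filtering: with at most 10% mitochondrial UMIs it held 2637 RHS and 1274 control counts of Ccl17, a ratio of 1.32, and the cDC2-like ratio was then 1.62. Mural cell-like cells, which should lack the gene, had 4 RHS and 8 control counts, all in 1 cell of each library.

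**Figure D1:**
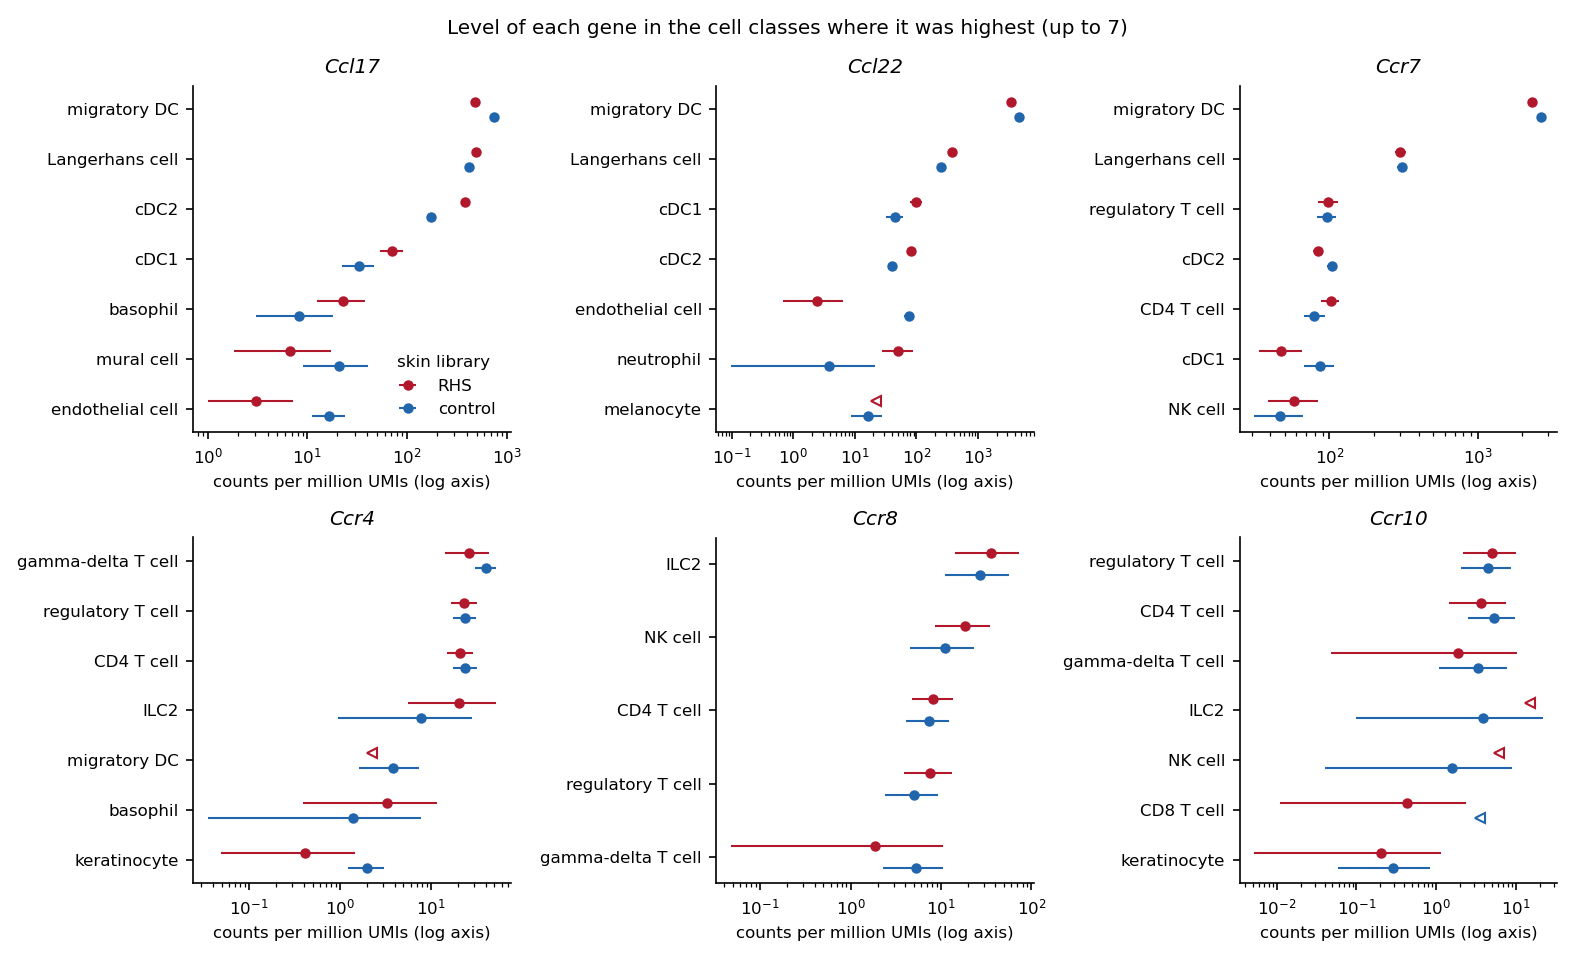
Level of each gene in CPM of summed UMIs (log axis) for the classes where it was highest, with RHS in red above control in blue. Points are levels, bars 95% counting intervals, and open triangles mark the level of 3 counts where a class held none. Ccl17 in cDC2-like cells lay at 385 CPM in RHS and 176 CPM in control, while Ccl17, Ccl22 and Ccr7 in migratory cells lay lower in RHS.

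Ccl22 was far more concentrated in migratory dendritic cell-like cells, which held 71.2% of its UMIs in RHS and 86.5% in control. Its level there was 3392 CPM (3294 to 3493) in RHS and 4586 CPM (4495 to 4679) in control, a ratio of 0.740 (0.714 to 0.766). In the other dendritic classes Ccl22 was lower than in migratory cells. Langerhans cell-like cells had 380 CPM in RHS and 255 CPM in control (1.49, 1.33 to 1.68). The cDC2-like cells had 80.8 CPM in RHS and 40.9 CPM in control (1.98, 1.72 to 2.28), and cDC1-like cells 100 CPM in RHS and 45.2 CPM in control (2.21, 1.5 to 3.31). With gates the cDC1-like ratio was 0.953. The share of Ccl22 UMIs held by Langerhans cell-like cells was 10.7% in RHS and 4.57% in control, and by cDC2-like cells 9.32% in RHS and 2.67% in control.

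In RHS the Ccl22 levels ran from migratory through Langerhans cell-like to cDC1-like and cDC2-like cells, and the cDC1-like and cDC2-like levels were not apart beyond counting error. In control, endothelial cell-like cells came between Langerhans cell-like and cDC1-like cells, with 133 counts against 4 counts in the RHS endothelial cell-like cells. Of those 133 counts, 126 were in cells that carried at least 3 of the 11 migratory dendritic cell markers, and the endothelial level without such cells was 1.93 CPM in RHS and 4.42 CPM in control. The same split, chosen after its values were seen, bears on Langerhans cell-like cells. There, cells with at least 3 migratory markers (17 in RHS and 28 in control) held 331 of 680 Ccl22 counts in RHS and 119 of 510 in control. Without them the Langerhans cell-like level of Ccl22 was 210 CPM in RHS and 220 CPM in control, so the ratio above 1 was not present in the remaining cells. In cDC2-like cells the level without such cells was 76.2 CPM in RHS and 35.4 CPM in control. Macrophage-like cells held 12.8 CPM of Ccl22 in RHS and 8.46 CPM in control (1.51, 1.09 to 2.12), and the ratio was 2.94 with each library clustered separately.

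**Figure D2:**
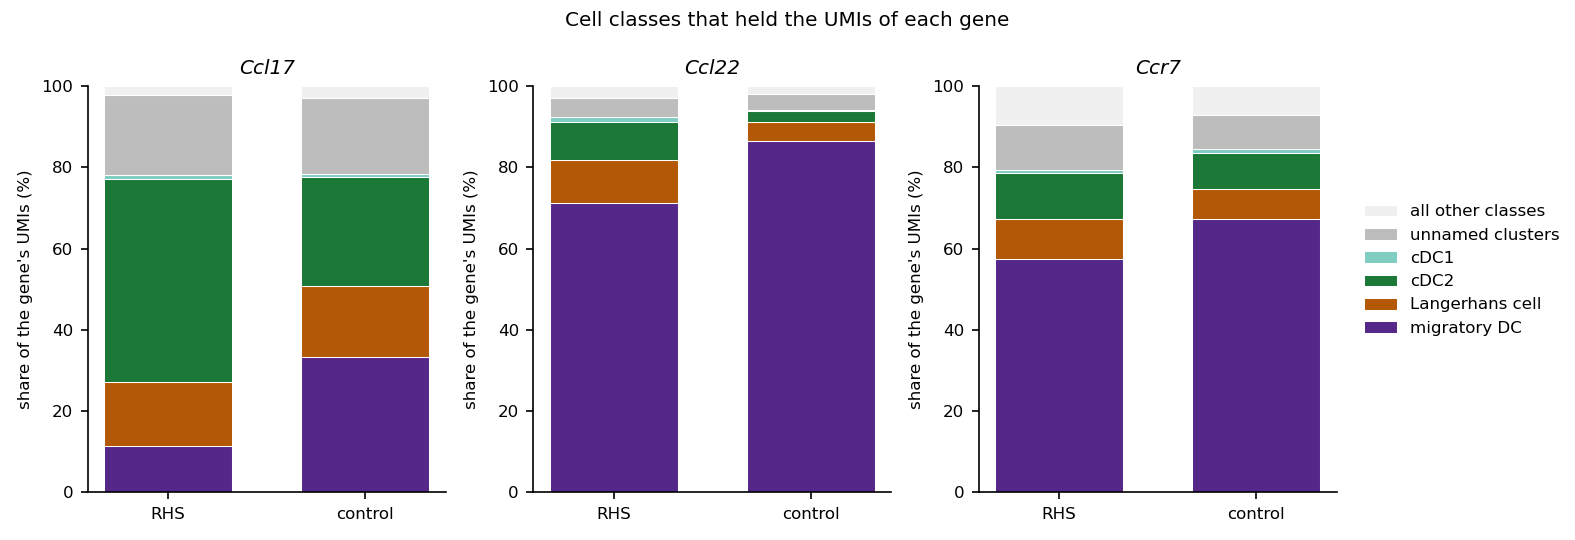
Share of the UMIs of Ccl17, Ccl22 and Ccr7 (%) held by each class, with the RHS bar left of the control bar in each panel. The cDC2-like share of Ccl17 was 50% in RHS and 26.9% in control, and the migratory share of Ccl22 was 71.2% in RHS and 86.5% in control.

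Read against all genes, the cDC2-like class had 3 of the 6 genes measured, meaning at least 20 counts in the higher library. Of these, Ccl17 and Ccl22 passed a ratio of 1.5 upwards and Ccr7 did not pass. Of the 9423 genes measured in that class, 13.3% passed 1.5 in either direction and 5.91% upwards. In migratory cells 3 of the 6 genes were measured and Ccl17 alone passed 1.5, downwards. Of 6392 genes there, 15.4% passed in either direction and 9.15% downwards. In Langerhans cell-like cells 3 were measured and none passed, with Ccl22 just inside at 1.49, against 13.9% of 7050 genes.

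The cDC2-like class was a mix of 7 clusters, and the ratio of Ccl17 was above 1 in each, with the counting interval above 1 in 6 of them. The cluster led by Ccl17 itself, F10 and Cxcl9 had the highest level, 1183 CPM in RHS and 347 CPM in control (3.40, 3.03 to 3.83). The proliferating cluster led by Ube2c had 386 CPM in RHS and 141 CPM in control (2.74, 2.25 to 3.35). The larger of the clusters led by the C-type lectin gene Cd209a had 404 CPM in RHS and 279 CPM in control (1.45, 1.29 to 1.62). A cluster led by Retnla and Lyz1 was low in both libraries, with 69.2 CPM in RHS and 7.28 CPM in control. This Retnla cluster held the most cDC2-like cells in RHS (426 of 1185), while the Cd209a cluster held the most in control (356 of 1165). The class average thus drew on different clusters in the libraries, and the direction was the same within them. The Retnla and Ube2c clusters had 0 cDC2 naming markers among their top 10 genes. Their mean log2 ratios of the cDC2 markers were 0.62 and 1.06. That of the F10 and Cxcl9 cluster was 0.94, and that of the larger Cd209a cluster 1.64. The smaller Cd209a cluster had 301 CPM in RHS and 112 CPM in control (2.70, 2.10 to 3.49). The cluster led by Prg4 and Erfe had 291 CPM in RHS and 264 CPM in control (1.10, 0.636 to 1.87), and the interferon-response cluster with Oasl1 and Ifih1 had 9 RHS and 3 control counts.

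Ccl22 was likewise above 1 in all 7 cDC2-like clusters, with the interval above 1 in 6. It stood at 152 CPM in RHS and 47.5 CPM in control in the F10 and Cxcl9 cluster (3.20, 2.33 to 4.46). In the smaller Cd209a cluster it stood at 105 CPM in RHS and 28.5 CPM in control (3.68, 2.29 to 6.12), and in the larger one at 156 CPM in RHS and 82.2 CPM in control (1.90, 1.56 to 2.32). The Prg4 cluster had 7 RHS and 0 control counts. Setting the control at a floor of 3 counts gave a ratio of 4.92, which leaves out the counting error of the 7 counts.

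The Langerhans cell-like class did not have 1 direction. Its main cluster, with 288 RHS and 294 control cells, had 516 CPM of Ccl17 in RHS and 407 CPM in control (1.27, 1.15 to 1.40) and 423 CPM of Ccl22 in RHS and 276 CPM in control (1.53, 1.36 to 1.72). The small proliferating cluster, with 21 RHS and 25 control cells, had 330 CPM of Ccl17 in RHS and 499 CPM in control (0.661, 0.478 to 0.908). A further unnamed cluster carrying both the Langerhans gene Cd207 and the dermal gene Cd209a, with 65 RHS and 41 control cells, also went down. It held 154 CPM of Ccl17 in RHS and 413 CPM in control (0.372, 0.274 to 0.501), and 196 CPM of Ccl22 in RHS and 883 CPM in control (0.222, 0.173 to 0.283).

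Of the 2 migratory clusters, the one led by Apol7c and Fscn1 held most ligand. Its Ccl17 level was 554 CPM in RHS and 895 CPM in control (0.619, 0.564 to 0.679), and its Ccl22 level 3590 CPM in RHS and 5044 CPM in control (0.712, 0.686 to 0.739). The other, led by Il12b, the gene of the interleukin 12 and 23 subunit p40, was rich in Ccl22 and nearly without Ccl17. There Ccl22 was 2138 CPM in RHS and 2292 CPM in control (0.933, 0.824 to 1.05), and Ccl17 had 6 RHS and 5 control counts. Ccl17 and Ccl22 therefore separated between mature dendritic cell states in both libraries.

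**Figure D3:**
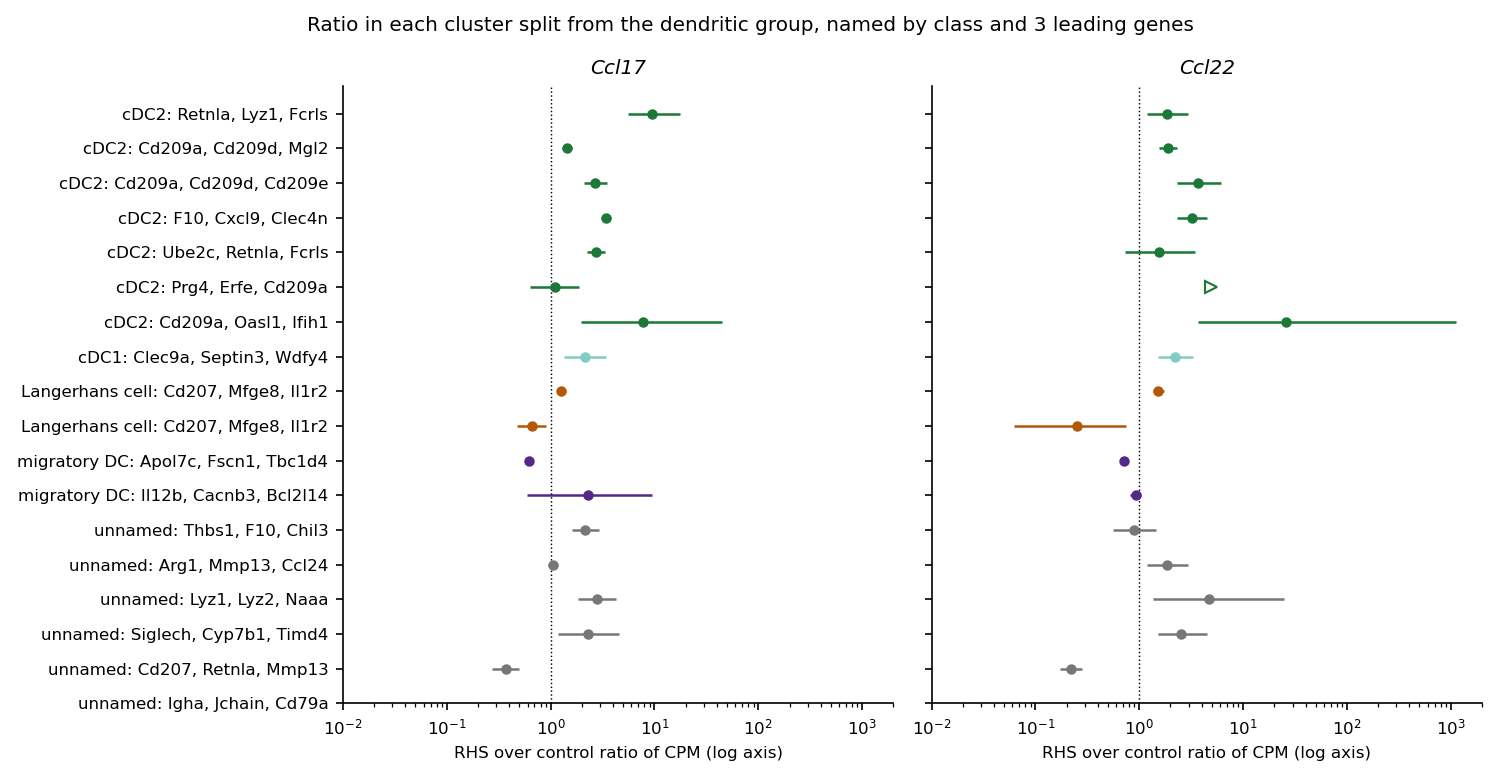
Ratio of RHS over control CPM of Ccl17 (left) and Ccl22 (right) in each of the 18 clusters split from the dendritic group (log axis), named by class and 3 leading genes other than the 6 described here. Points are ratios, bars 95% counting intervals, an open triangle a lower bound, and the dotted line marks a ratio of 1; the Igha cluster has no ratio. All 7 cDC2-like clusters lie above 1 for both genes, and the main migratory cluster lies at 0.619 and 0.712.

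Ccl17 was carried by few cells with many transcripts, while Ccl22 was carried by most migratory cells. Among cDC2-like cells 15.7% of RHS and 11.2% of control cells had a Ccl17 UMI, with median cell depths of 5953 and 6111 UMIs. After thinning every cell to 1000 UMIs the shares were 9.74% of 1170 RHS cells and 5.55% of 1153 control cells, against 0 of 190 RHS and 1 of 110 control mural cell-like cells (median depths of 2467 and 2880 UMIs). Where Ccl17 was present in a cDC2-like cell, the median was 5.50 UMIs in RHS and 2.00 UMIs in control. Cells with 10 or more Ccl17 UMIs numbered 64 (5.40%) in RHS and 29 (2.49%) in control. The 10 richest cDC2-like cells held 41.3% of the class's Ccl17 in RHS and 47.6% in control, with a maximum of 444 UMIs in 1 RHS cell and 95 UMIs in 1 control cell. So both more positive cells and more transcripts per positive cell were seen in the RHS cDC2-like cells.

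In migratory cells 36.0% of RHS and 40.6% of control cells had a Ccl17 UMI, and 17 (7.11%) RHS and 49 (14.4%) control cells had 10 or more. In Langerhans cell-like cells the shares with a Ccl17 UMI were near equal, at 16.8% in RHS and 17.6% in control, and 15 RHS and 17 control cells had 10 or more. The 10 richest Langerhans cell-like cells held 82.3% of the class's Ccl17 in RHS and 71.8% in control. The higher RHS level of that class thus rested on a handful of cells: without the 10 richest cells of each library its ratio was 0.745, while the ratio of cDC2-like cells was 2.46 and that of migratory cells 0.445.

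Ccl22 was present in 86.2% of RHS and 89.4% of control migratory cells, and in 63.6% of RHS and 70.8% of control cells after thinning. Its median in positive cells was 11 UMIs in RHS and 13 UMIs in control, and 110 (46.0%) RHS and 180 (52.9%) control cells had 10 or more. Only 9.87% of RHS and 7.90% of control cDC2-like cells had a Ccl22 UMI, and after thinning 3.85% of RHS and 2.60% of control cells, while the thinned mural cell-like cells had none. A total of 83 of 86 Ccl17-positive migratory cells in RHS and 136 of 138 in control also had Ccl22, and 96.6% of RHS and 97.4% of control Ccl22-positive migratory cells also had Ccr7. Among all migratory cells 86.2% of RHS and 89.4% of control cells had Ccl22, and 96.2% and 96.5% had Ccr7. The overlap of Ccl22 with Ccr7 was thus near the Ccr7 share of the class. That of Ccl17 with Ccl22 (96.5% in RHS and 98.6% in control) was somewhat above the Ccl22 share. In cDC2-like cells 36.0% of RHS and 30.8% of control Ccl17-positive cells had Ccl22, and in Langerhans cell-like cells 51.9% of RHS and 66.1% of control ones did.

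**Figure D4:**
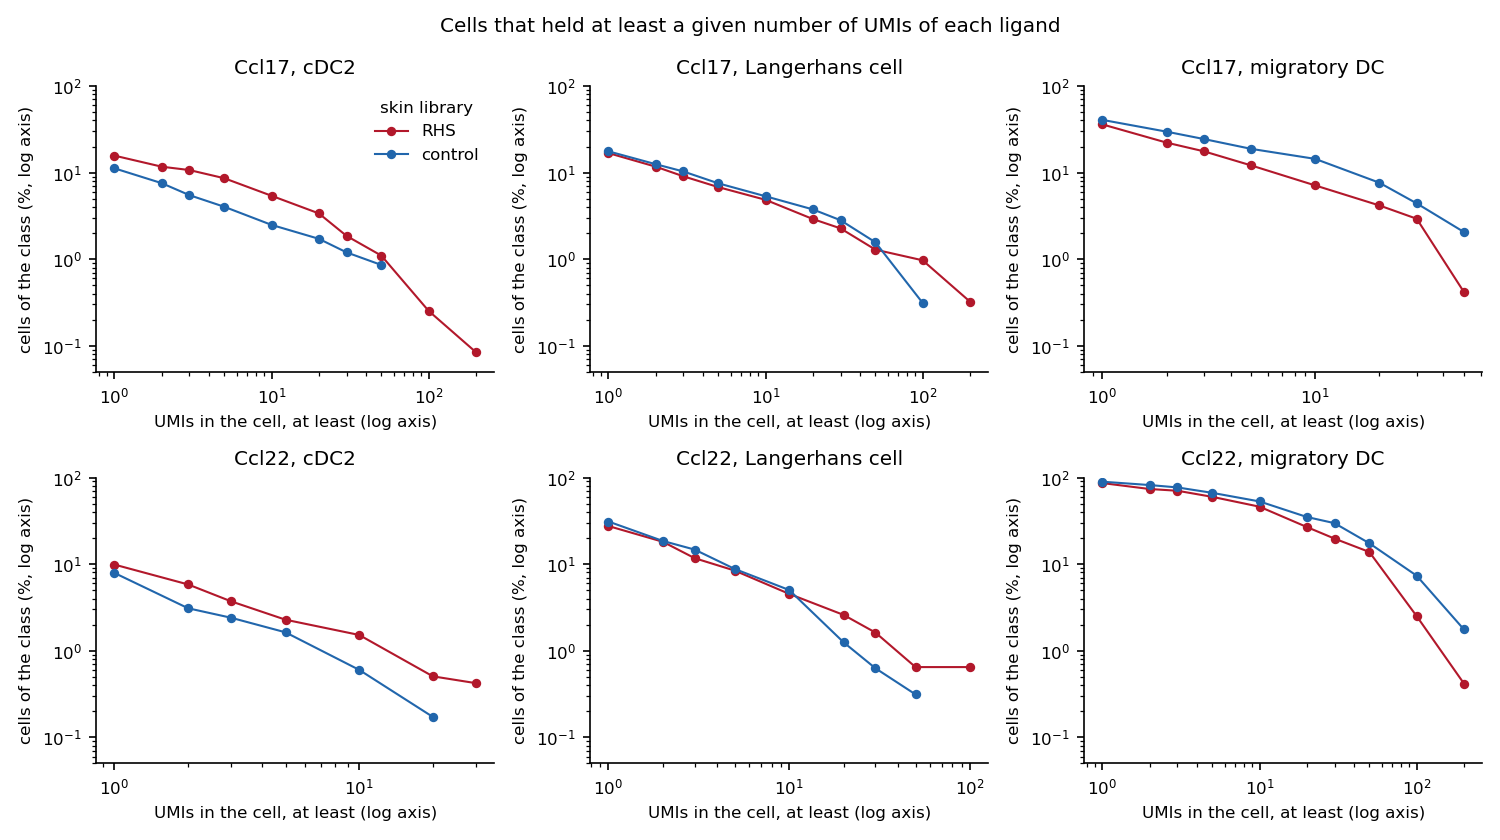
Percent of the cells of a class (log axis) holding at least a given number of UMIs (log axis) of Ccl17 (top) or Ccl22 (bottom), in cDC2-like, Langerhans cell-like and migratory cells, with RHS in red and control in blue. Points with no cells are left out. The RHS line lies above the control line in cDC2-like cells and below it in migratory cells, and the lines cross in Langerhans cell-like cells.

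Ccr7 followed the maturation classes. Migratory dendritic cell-like cells held 2340 CPM (2259 to 2424) in RHS and 2675 CPM (2606 to 2746) in control, a ratio of 0.875 (0.837 to 0.914), and 57.4% of all Ccr7 UMIs in RHS and 67.2% in control. A Ccr7 UMI was found in 96.2% of RHS and 96.5% of control migratory cells, so the receptor was near universal there in both libraries. Langerhans cell-like cells held 302 CPM in RHS and 309 CPM in control (0.976, 0.868 to 1.10). In cDC2-like cells the level was 83.9 CPM in RHS and 104 CPM in control (0.810, 0.727 to 0.902). Within the 7 cDC2-like clusters Ccr7 was above 1 in 5 and below 1 in 2, for example 91.4 CPM in RHS and 57.8 CPM in control in the F10 and Cxcl9 cluster (1.58, 1.15 to 2.2) and 55 CPM in RHS and 89.7 CPM in control in the proliferating one (0.613, 0.433 to 0.863). The class ratio was 1.65 with libraries clustered separately, so no direction is stated for it. It was 1.00 after the mural cell-like level was subtracted as free RNA. The control mural cell-like level (23.3 CPM) was 9 counts in 1 cell with at least 3 migratory markers, so that value is not a measure of free RNA. The unnamed cluster led by Siglech, a gene of plasmacytoid dendritic cells, held 451 CPM of Ccr7 in RHS and 475 CPM in control.

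Among lymphocytes Ccr7, which also marks naive and central memory T cells, was highest in regulatory and CD4 T cell-like cells. Regulatory T cell-like cells held 98.1 CPM in RHS and 96.4 CPM in control (1.02, 0.819 to 1.27), and CD4 T cell-like cells 102 CPM in RHS and 79.3 CPM in control (1.28, 1.03 to 1.59). The CD4 value was made of clusters that differed. The cluster led by Penk and Ccl1 had 234 CPM in RHS and 102 CPM in control (2.29, 1.70 to 3.10), and the cluster led by Gimap4 and Cxcr3 had 21.8 CPM in RHS and 45.8 CPM in control (0.475, 0.228 to 0.967). The cluster with Tnfsf8 and Gata3 had 56.3 CPM in RHS and 79.9 CPM in control (0.705, 0.452 to 1.08). CD8 T cell-like cells had 10.8 CPM in RHS and 43.1 CPM in control (0.25, 0.144 to 0.427), in a class of 1124 RHS and 335 control cells. With each library clustered separately this ratio was 1.28, and that of CD4 T cell-like cells 0.709.

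Ccr4, the receptor of both ligands, had most of its counts in 3 lymphocyte classes. The interleukin 17-type gamma-delta T cell-like cells had 26.2 CPM (14.3 to 43.9) in RHS and 40.0 CPM (30.5 to 51.5) in control. With 14 RHS and 60 control counts, the ratio was 0.654 (0.338 to 1.18). Without the 10 richest cells of each library it was 0.155. That removal took 10 of the 12 RHS but 10 of the 47 control cells with a UMI, so 0.155 says little about the class. Regulatory T cell-like cells had 23.4 CPM (16.5 to 32.3) in RHS and 23.7 CPM (17.4 to 31.5) in control (0.988, 0.624 to 1.55). CD4 T cell-like cells had 21.1 CPM (15.2 to 28.7) in RHS and 23.8 CPM (17.4 to 31.8) in control (0.888, 0.567 to 1.39). In the RHS library none of the 3 levels was apart from the next beyond counting error. The CD4 level there was not apart from that of ILC2-like cells (20.4 CPM from 4 counts) either. In control the gamma-delta level stood above the others. All 3 intervals of the ratio included 1, so a difference in Ccr4 within these classes was not detectable at this depth.

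Within the CD4 class Ccr4 was concentrated in the cluster with Gata3, the master regulator of type 2 T cells, at 46.7 CPM in RHS and 39.9 CPM in control (29 and 31 counts). The Cxcr3 cluster of the class had 4.36 CPM in RHS and 4.37 CPM in control. Among gamma-delta cells the cluster led by Il17a and Cd163l1 carried most of it, with 11 RHS and 52 control counts (37.6 and 53.1 CPM). The share of Ccr4 UMIs by class was 36.9% in RHS and 22.2% in control for CD4 T cell-like cells, 33.3% in RHS and 23.2% in control for regulatory cells, and 12.6% in RHS and 29.6% in control for gamma-delta cells. Shares follow cell numbers, which were 330 RHS and 826 control gamma-delta cells. After thinning to 1000 UMIs a Ccr4 UMI was present in 1.57% of RHS and 3.69% of control regulatory cells, 1.68% and 2.16% of CD4 cells, and 2.99% and 3.45% of gamma-delta cells, with none in mural cell-like cells. Thinned to 2000 UMIs, which leaves fewer cells, the order in regulatory cells was turned, at 6.17% of 243 RHS and 4.26% of 305 control cells. Keratinocyte-like cells had 2 RHS and 21 control counts (0.206, 0.0234 to 0.843), and migratory cells 0 RHS and 8 control counts.

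Of the 6 genes, Ccr4 and Ccr7 reached 20 counts in the 3 classes above. In CD4 T cell-like cells neither passed a ratio of 1.5, against 12.5% of 7537 genes, and in regulatory T cell-like cells neither passed, against 12.8% of 7767 genes. In gamma-delta T cell-like cells both passed downwards, against 19.1% of 5528 genes in either direction and 14.9% downwards. There Ccr7 had 5 RHS and 31 control counts (0.452, 0.137 to 1.17) and a ratio of 0.0608 with gates. Both gamma-delta intervals included 1.

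Ccr8 and Ccr10 were found in few cells. Ccr8 was highest in ILC2-like cells, the innate makers of type 2 cytokines, with 35.7 CPM (14.3 to 73.5) in RHS and 27.3 CPM (11 to 56.2) in control from 7 counts in each library. NK cell-like cells followed with 18.6 CPM in RHS and 11.2 CPM in control (9 and 7 counts). CD4 T cell-like cells had 16 RHS and 14 control counts (8.25 and 7.40 CPM), of which 11 RHS and 12 control counts were in the cluster led by Penk and Ccl1, and regulatory T cell-like cells had 12 RHS and 10 control counts (7.60 and 5.05 CPM). No neighbouring levels of Ccr8 were apart beyond counting error in either library. A UMI of both Ccr4 and Ccr8 was held by 0 RHS and 2 control regulatory cells and 0 RHS and 1 control CD4 cell. Each alone was sparse too, so few cells with both could be seen. Of 508 RHS regulatory cells 32 had Ccr4 alone and 12 Ccr8 alone, and of 531 control ones 39 and 8. Whether the receptors share cells was not tested.

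Ccr10 counts were 8 RHS and 9 control in regulatory T cell-like cells (5.07 and 4.54 CPM), 7 RHS and 10 control in CD4 T cell-like cells (3.61 and 5.29 CPM) and 1 RHS and 5 control in gamma-delta cells. The Gata3 cluster of CD4 cells held 5 of the 7 RHS and 7 of the 10 control counts. A small unnamed cluster led by Igha, Jchain and Cd79a, genes of antibody-making cells, held 7 Ccr10 counts in 4 of 28 RHS cells and 0 counts in 50 control cells. With the control set at a floor of 3 counts the ratio was 1.91, which leaves out the counting error of the 7 counts. CCR10 is a known homing receptor of IgA plasma cells. The same cluster had 6 RHS and 32 control counts of Ccr7.

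The ligands of the other receptors came from other cells. Ccl1, a CCR8 ligand, was found in CD4 T cell-like cells at 44.3 CPM in RHS and 47.1 CPM in control (0.942, 0.692 to 1.28). On fewer than 20 counts, ILC2-like cells had 10.2 CPM of Ccl1 in RHS and 46.8 CPM in control (2 and 12 counts). Mast cell-like cells had 22.8 CPM in RHS and 7.47 CPM in control (12 and 7 counts). Ccl8, the other mouse CCR8 ligand, was abundant in macrophage-like cells at 1348 CPM in RHS and 1344 CPM in control (1.00, 0.976 to 1.03). In fibroblast-like cells Ccl8 was 148 CPM in RHS and 62.9 CPM in control (2.36, 1.62 to 3.52), and in endothelial cell-like cells 26.6 CPM in RHS and 4.00 CPM in control (6.66, 2.97 to 17.5). It was also above 1 at low levels in Langerhans cell-like cells (12.3 CPM in RHS and 2.99 CPM in control) and migratory cells (15 CPM in RHS and 3.33 CPM in control), and 1.01 in cDC2-like cells. Most classes with fewer than 20 Ccl8 counts were higher in RHS too, such as basophil-like (24.5 and 2.78 CPM) and NK cell-like cells (20.6 and 4.80 CPM). Mural cell-like (5.07 and 7.78 CPM) and melanocyte-like cells (0 and 3.74 CPM) were lower in RHS. Macrophage-like cells numbered 1994 in RHS and 1014 in control. Ccl21a, the lymphatic CCR7 ligand, was 187 CPM in RHS and 89.6 CPM in control in endothelial cell-like cells (2.08, 1.71 to 2.54). Ccl19, the other CCR7 ligand, was 66.8 CPM in RHS and 41.9 CPM in control in fibroblast-like cells (1.59, 0.974 to 2.68). Ccl27a, the keratinocyte ligand of CCR10, was 52.5 CPM in RHS and 38.0 CPM in control in keratinocyte-like cells (1.38, 1.18 to 1.62). Ccl28 had fewer than 20 counts in each class compared. The stromal and epithelial classes are cells that passed through a CD45 selection, and their numbers differed between the libraries.

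A list of 17 sensors and transcription factors known to act upstream of Ccl17 and Ccl22 had no member past 1.5 upwards in the 3 dendritic classes. In cDC2-like cells all 17 were measured, 0 passed 1.5 upwards and 4 passed downwards, with a median log2 ratio of -0.26 against 0.016 over all genes of the class, of which 5.91% passed upwards and 7.43% downwards. In migratory cells 16 were measured, 0 passed upwards and 5 downwards (median -0.21 against 0.016, with 6.26% of all genes upwards and 9.15% downwards), and in Langerhans cell-like cells 17 were measured, 0 passed upwards and 4 downwards (median -0.17 against 0.008, with 5.52% upwards and 8.40% downwards). Irf4, a transcription factor that cDC2 need to induce type 2 responses, had 29.9 CPM in RHS and 48.0 CPM in control in migratory cells (0.623, 0.421 to 0.907) and 68.3 CPM in RHS and 81.8 CPM in control in cDC2-like cells (0.835, 0.740 to 0.942). Crlf2, the TSLP receptor chain, had 14.4 CPM in RHS and 18.4 CPM in control in cDC2-like cells (0.784, 0.602 to 1.02). Il2rg, the common gamma chain, was 240 CPM in RHS and 214 CPM in control in cDC2-like cells (1.12, 1.05 to 1.2).

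The lowest ratios of the list were those of Rela, an NF-kappaB subunit, at 0.448 in cDC2-like, 0.445 in migratory and 0.476 in Langerhans cell-like cells, and of Stat5a at 0.515, 0.446 and 0.464. These were not particular to the dendritic classes. Rela was below 1 in 20 of the 20 classes where it was measured (0.282 to 0.744), and Stat5a in 16 of 17 (0.364 to 1.16). Il4ra, the interleukin 4 receptor chain, named after its values were seen, was 69.8 CPM in RHS and 128 CPM in control in cDC2-like cells (0.543, 0.487 to 0.606). It also lay below 1 in migratory cells (0.536), Langerhans cell-like cells (0.532), CD4 T cell-like cells (0.605) and gamma-delta cells (0.573), and above 1 in ILC2-like cells (1.59, 0.884 to 2.89).

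Few maturation genes passed a ratio of 1.5, as was so for all genes of these classes. Of 16 genes on the list, 15 were measured in migratory cells, where 6.26% of all genes passed upwards and 9.15% downwards. None passed upwards and 1, the amino acid oxidase gene Il4i1, downwards at 71.8 CPM in RHS and 110 CPM in control (0.654, 0.510 to 0.833). The counting interval lay above 1 for 2 of them and below 1 for 5. Cd83, a surface protein of mature dendritic cells, was 698 CPM in RHS and 527 CPM in control there (1.32, 1.21 to 1.44), and the PD-1 ligand gene Pdcd1lg2 was 173 CPM in RHS and 249 CPM in control (0.697, 0.594 to 0.815). In cDC2-like cells 13 were measured and none passed, where 5.91% of all genes passed upwards and 7.43% downwards. Intervals lay above 1 for 3 and below 1 for 4, with Cd40 at 57.1 CPM in RHS and 43.1 CPM in control (1.33, 1.14 to 1.54) and Pdcd1lg2 at 119 CPM in RHS and 169 CPM in control (0.700, 0.641 to 0.764). In Langerhans cell-like cells 13 were measured and 1 passed, Il12b, with 42 RHS and 2 control counts (23.5, 6.12 to 201). There 5.52% of all genes passed upwards and 8.40% downwards, and intervals lay above 1 for 4 of the 13 and below 1 for 0. Ccrl2, an atypical receptor that presents chemerin, was the 1 measured gene among 5 decoy and scavenger receptors in these classes. It was 138 CPM in RHS and 66.0 CPM in control in cDC2-like cells (2.09, 1.87 to 2.33), 62.6 CPM in RHS and 29.4 CPM in control in Langerhans cell-like cells (2.13, 1.54 to 2.97), and 67.3 CPM in RHS and 77.0 CPM in control in migratory cells (0.874, 0.668 to 1.14).

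In the T cell classes that carried Ccr4, few of the 12 skin homing and egress genes passed a ratio of 1.5. In regulatory T cell-like cells 11 were measured and 0 passed in either direction, where 3.35% of all genes passed upwards and 9.50% downwards. In gamma-delta cells 7 were measured and 0 passed, where 4.21% of all genes passed upwards and 14.9% downwards. In CD4 T cell-like cells 11 were measured and 1 passed in each direction, the upward one being Itga4, an integrin subunit, at 76.8 CPM in RHS and 42.3 CPM in control (1.82, 1.37 to 2.41), where 5.17% of all genes passed upwards and 7.35% downwards. Selplg, which carries the skin-homing glycan CLA, was 691 CPM in RHS and 740 CPM in control in CD4 T cell-like cells (0.933, 0.865 to 1.01). Of 12 other chemokine receptors in gamma-delta cells 6 were measured and 1 passed downwards, and Ccr2 there was 1047 CPM in RHS and 1520 CPM in control (0.689, 0.627 to 0.756).

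The genes whose levels over the classes were most like those of each of the 6 genes were ranked by Pearson r of log2(CPM + 10) over 40 points, which are 20 classes in each of 2 libraries and share cells, depth and library. The values are descriptions. For Ccl17 the closest was H2-DMb2 (0.927), an antigen presentation gene that is also a cDC2 naming marker, followed by Rtn1 (0.914), Zfp366 (0.901), Kynu (0.876) and Ccl22 (0.873). For Ccl22 they were Kynu (0.947), H2-Eb2 (0.915), Zmynd15 (0.914, a migratory marker), Rogdi (0.891) and Rtn1 (0.889). The ligands thus sat beside each other and beside Kynu, a kynureninase, and Rtn1. Ccr4 was closest to Tnfrsf25 (0.903) and Il2ra (0.829), Ccr8 to Ccdc184 (0.922) and Slain1 (0.872), and Ccr10 to Sv2c (0.835), while Ly75 (0.841) was among the 5 closest to Ccr7. Ranked by Spearman rho, 1, 1, 0, 2, 0 and 0 of the 5 closest genes were shared for Ccl17, Ccl22, Ccr4, Ccr8, Ccr10 and Ccr7, so the lists depend on the measure. Among the genes themselves r was 0.87 for Ccl17 with Ccl22, 0.82 for Ccl22 with Ccr7, 0.82 for Ccr4 with Ccr10 and 0.54 for Ccr4 with Ccr8, and -0.25 for Ccl17 with Ccr4.

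Not all ratios held under other ways of grouping the cells. Over 13 alternatives each, the cDC2-like ratio ran between 1.62 and 2.67 for Ccl17 and between 1.81 and 3.98 for Ccl22, all above 1, and the migratory ratio of Ccl22 between 0.723 and 0.916, all below 1. The migratory ratio of Ccl17 was below 1 in 12 of 13 and above 1 (1.17) with single-cell marker gates in place of clusters, as was that of Ccr7 (1.07). The Langerhans cell-like ratio of Ccl17 was above 1 in 8 of 13 and that of Ccl22 in 11 of 13, so the direction for Langerhans cell-like cells depends on how the cells are grouped.

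**Figure D5:**
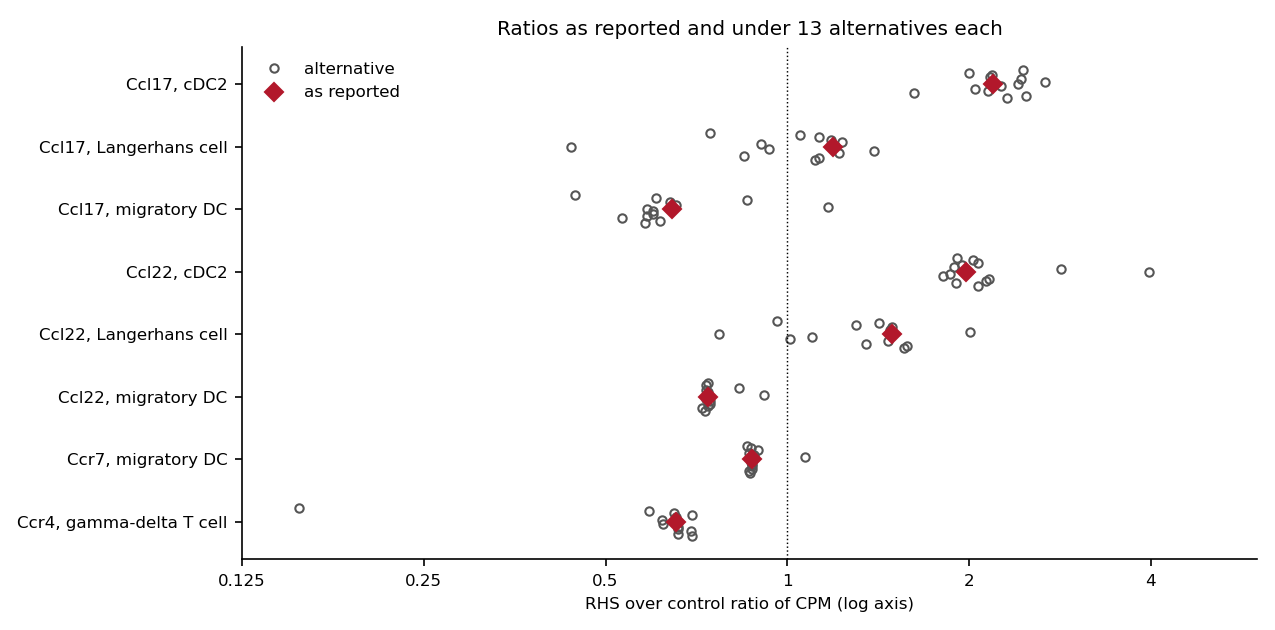
Ratios of RHS over control CPM (log axis) as reported (red diamonds) and under 13 alternatives each (open circles) for 8 combinations of gene and class. Circles are spread vertically for legibility and the dotted line marks a ratio of 1. The cDC2-like circles of both ligands lie above 1, those of Ccl22 in migratory cells below 1, and those of Langerhans cell-like cells on both sides.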

How the data were processed

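The 2 skin libraries, RHS with MC903 and MC903 alone, were used with 1 library per group, each a matrix of gene by barcode. The authors deposited raw, unnormalized UMI counts (whole numbers), and every barcode held at least 500 UMIs. The submitters' processing notes name GRCm39, Cell Ranger, Seurat 5.1.0 and R 3.6.0 without their roles. How skin barcodes were called is not stated there. There were 0 unmapped columns.

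A floor of 200 genes removed 92 RHS and 54 control barcodes, and a ceiling of 20% mitochondrial UMIs removed 179 RHS and 202 control barcodes. Scrublet (expected share 6%) removed 115 RHS (0.880%) and 146 control (1.15%) doublets, so undetected doublets remain. Counts were scaled to 10000 per cell and log-transformed, and 2000 variable genes without the 6 genes, 30 components, 15 neighbours and Leiden resolution 1.0 gave 32 clusters. Lymphocyte and dendritic clusters were clustered again, which gave 54 clusters with 16 unnamed. Presence of a marker required detection in 5.0% of a cluster's cells and 2.0 times the level of other clusters. A cluster took the class with the highest mean log2 ratio of CPM + 10 among classes with 3 or more present markers. It stayed unnamed where another such class scored within 0.25, where that class lay outside the lymphocyte or dendritic group it was split from, or with more markers of another class than of its own among the top 10 genes; this naming rule was set after seeing the data.

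Sums of counts over each class were expressed as CPM with exact Poisson 95% intervals, ratios with exact conditional binomial intervals, and shares with exact Clopper-Pearson intervals; a 0 was set at a floor of 3 counts. With 1 library per group no test was run. A gene was measured in a class with at least 20 counts in the higher library. The 6 genes were named in each class, the 5 most alike genes by Pearson r (at least 100 counts, 12120 genes), and from each of 8 lists the 2 highest and 2 lowest ratios plus genes linked directly to the 6; not all of these are printed, and some genes are not reported here. The genes, lists and tests were chosen with earlier results of these data known. The removal of the 1 or the 10 cells richest in a gene, and the split by migratory markers, were chosen after seeing the data. The intervals were run on simulated independent Poisson counts, the setting they assume. That run cannot show how they hold for UMIs clumped within cells. Tools were Python 3.11.15, scanpy 1.11.5, anndata 0.12.19, numpy 2.4.6, scipy 1.17.1, pandas 2.3.3, scikit-learn 1.9.0, leidenalg 0.10.2, igraph 0.11.9 and matplotlib 3.10.9, with random seed 7.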

Additional observations from a re-analysis of the deposited data

Results flagged for a closer look

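As reported, the ratios of RHS over control lay on different sides of 1 in migratory dendritic cell-like cells and in the other dendritic classes. For Ccl17 the ratio was 2.19 in cDC2-like, 1.19 in Langerhans cell-like and 2.13 in cDC1-like cells, against 0.645 in migratory cells. For Ccl22 it was 1.98 in cDC2-like, 1.49 in Langerhans cell-like and 2.21 in cDC1-like cells, against 0.740 in migratory cells. With 1 library per group these differences between classes were not tested. Of the 13 alternatives each, Ccl17 in Langerhans cell-like cells was above 1 in 8 and Ccl22 in 11. With gates on single cells Ccl17 was 1.17 in migratory cells and Ccl22 0.953 in cDC1-like cells. The cDC2-like ratios of both ligands stayed above 1 and the migratory ratio of Ccl22 below 1 in all 13.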

How the results depend on the processing

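No paired analysis was possible because each group is 1 library. Values with another direction than reported were as follows. In Langerhans cell-like cells Ccl17 was 0.848 with at most 10% mitochondrial UMIs, 0.931 with the 6 genes left in the clustering, 0.438 with libraries clustered separately, 0.903 with single-cell gates and 0.745 without the 10 richest cells, and Ccl22 was 0.770 clustered separately and 0.960 without the 10 richest cells. With gates, Ccl17 was 1.17 and Ccr7 1.07 in migratory cells and Ccl22 0.953 in cDC1-like cells. Ccl17 in macrophage-like cells was 1.32 with at most 10% mitochondrial UMIs, 1.07 at resolution 2.0, 14.7 clustered separately and 1.07 without the 10 richest cells. Clustered separately, Ccr7 was 0.709 in CD4, 1.28 in CD8 and 1.65 in cDC2-like cells, and 1.00 in cDC2-like cells after free RNA was subtracted. The Ccr4 share of regulatory cells, RHS minus control, was 1.91 points thinned to 2000 UMIs and -2.12 points thinned to 1000. Of the 8 main ratios, these values moved without a change of direction. Ccl17 in migratory cells was 0.580 with at least 500 genes, 0.532 with at most 10% mitochondrial UMIs, 0.585 at resolution 0.5, 0.586 clustered separately, 0.858 as a mean over cells and 0.445 without the 10 richest cells; Ccl22 there was 0.916 with gates and 0.833 as a mean over cells. Ccl17 in cDC2-like cells was 2.49 with doublets kept, 1.62 with at most 10% mitochondrial UMIs, 2.05 at resolution 2.0, 2.41 clustered separately, 2.67 with gates, 2.44 with free RNA subtracted, 2.00 without the richest cell and 2.46 without the 10 richest; Ccl22 there was 3.98 clustered separately and 2.84 with gates. In Langerhans cell-like cells Ccl17 was 1.39 at resolution 2.0 and 1.05 without the richest cell, and Ccl22 was 1.01 at resolution 2.0, 1.10 with the genes left in, 2.01 with gates and 1.30 as a mean over cells. Ccr4 in gamma-delta cells was 0.155 without the 10 richest cells. That removal took 10 of the 12 RHS and 10 of the 47 control cells with a UMI. Among the other ratios, Ccl17 in cDC1-like cells was 16.2 with gates, 6.47 without the richest cell and 5.18 with free RNA subtracted, and Ccl22 there 1.16 without the 10 richest cells. With gates Ccr7 was 0.224 in cDC1-like, 0.0608 in gamma-delta, 0.658 in CD8 and 0.776 in regulatory cells. With free RNA subtracted Ccr7 was 1.75 in CD4 cells. Free RNA was taken as the mural cell-like level of each library. There Ccl17 had 4 RHS and 8 control counts, all in 1 cell of each library, and Ccr7 had 9 control counts in 1 cell. Subtracted values of these genes thus rest on single cells and are not a measure of free RNA. Not every moved value of the other ratios is given. Genes past 1.5 numbered 985 in migratory, 981 in Langerhans cell-like and 1257 in cDC2-like cells, 347, 384 and 645 with at least 50 counts, and 4027, 3341 and 3843 with no minimum. The causes were not tested. Of 104 values of the 8 main ratios, 70 stayed within the counting interval, and of 235 values of 20 others, 198. Gates gave no value for classes without one, and free RNA subtraction or removal of cells gave none where too few counts remained. Depth limits Ccr4, Ccr8 and Ccr10 most, with at most 203 counts of each per library.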

Other observations

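Genes of type 2 cytokines and their receptors differed in direction within the cells that make them. In ILC2-like cells Il5 was 3262 CPM in RHS and 1617 CPM in control (2.02, 1.78 to 2.29), and Il1rl1, the interleukin 33 receptor, was 1030 CPM in RHS and 487 CPM in control (2.11, 1.68 to 2.66). In the same cells Il4 had 6 RHS and 40 control counts (0.196, 0.0680 to 0.466), Csf2, the gene of GM-CSF, had 5 RHS and 40 control counts (0.163, 0.0504 to 0.414), and Il13 was 168 CPM in RHS and 281 CPM in control (0.599, 0.384 to 0.917). All 3 upstream cytokines measured in ILC2-like cells were thus lower in RHS, in 99 RHS and 105 control cells, where 8.92% of all measured genes passed 1.5 upwards and 14.2% downwards. Il5, Il1rl1 and Il13 are also ILC2 naming markers, so their levels depend on which cells the class took in. Of cells picked by ILC2 marker gates, 28 of 77 in RHS and 18 of 66 in control lay in the class. The ratios of these genes were not run with gates. In CD4 T cell-like cells Il4 was 19.6 CPM in RHS and 59.2 CPM in control (0.331, 0.223 to 0.482), and Ifng 17 CPM in RHS and 140 CPM in control (0.121, 0.0819 to 0.175), with 0 of 6 measured cytokines passing 1.5 upwards and 3 downwards, against 5.17% and 7.35% of all genes. Tnfrsf18, the GITR gene, chosen after its values were seen, was below 1 in 12 of the 12 classes where it was measured (0.364 to 0.555).

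In cDC2-like cells Il33, an alarmin cytokine, was 18.2 CPM in RHS and 11.1 CPM in control (1.64, 1.24 to 2.19), and the chemokine receptor gene Ccr1 was 136 CPM in RHS and 89.8 CPM in control (1.52, 1.38 to 1.68). In Langerhans cell-like cells Il33 had 4 RHS and 20 control counts (0.224, 0.0557 to 0.669). Tslp, the epithelial cytokine that MC903 is known to induce, had under 20 counts in the dendritic classes named here. These values come from 1 library per group and were not tested.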
